A study of Mus musculus with 594 samples.

Results

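The mitosis list held 45 genes, chosen by name as genes that act while a cell divides, and it was followed through 29 small molecules and a DMSO control. For 44 of the 45 genes a probe set was found in the array annotation, and where a gene had several, the probe set with the highest mean was used. Cdca8 was not analysed here. These 44 genes were 44 of 11807 genes with a level on the arrays.

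The study treated mouse pancreatic tumour cell lines, αTC1 of the glucagon-producing kind and βTC3 of the insulin-producing kind, with compounds aimed at chromatin. Cells were plated in low-glucose medium with serum 24 h ahead, given compound in DMSO or DMSO alone, and lysed after 1, 6 or 24 h. RNA from each well was measured on Affymetrix HT mouse arrays, 299 from αTC1 and 295 from βTC3. DMSO had 14 arrays at each time in αTC1, and 12, 10 and 12 arrays at 1, 6 and 24 h in βTC3. Of the groups of 1 compound, line and time, 168 held 3 arrays and 1 (chaetocin in αTC1 at 24 h) held 4. The other 5 held 2 arrays, namely BRD-K62233722, BRD-K92415738, CI-994, SAHA and scriptaid in αTC1 at 24 h. Nothing in the labels says that arrays of a group came from separate cultures, so the p-values measure the spread between these arrays, which may be technical. Each line is also a single tumour line, and lines and donors were not sampled more widely.

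The compounds fall into known classes. Hydroxamic acid inhibitors of histone deacetylases were trichostatin A at 0.22 µM, SAHA at 1.3 µM, LBH-589 at 0.015 µM, PXD101 at 2.4 µM, CRA-024781 at 1.5 µM, scriptaid at 2 µM, and ITF-2357 and pyroxamide at 10 µM. Ortho-amino anilide inhibitors were MS-275 at 2.9 µM, MGCD-0103 at 1.1 µM and CI-994 at 10 µM. Cyclic tetrapeptide inhibitors were apicidin at 1.4 µM and HC-toxin at 0.12 µM. Compounds aimed at methylation were the nucleosides 5-azadeoxycytidine and zebuarine (spelled as in the labels) at 10 µM, BIX-01294, AMI-1 and RG-0108 at 10 µM, and chaetocin at 1.7 µM. Code-named compounds were BRD5298, BRD8451 and BRD9773 at 10 µM, BRD6929 at 0.91 µM, BRD-A94377914 at 3 µM, BRD-K17311666 at 4.3 µM, BRD-K22912318 at 5 µM, BRD-K62233722 at 3.7 µM, BRD-K90919562 at 4.1 µM and BRD-K92415738 at 3.2 µM. Since doses differ between most compounds, responses at unequal doses are set side by side without a test.

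Mitosis genes are made in a wave. Their transcripts are low in G1, when the DREAM complex of MuvB, pocket proteins and E2F represses them, and rise in G2 and M, when MuvB works with B-MYB and FOXM1. Cyclin-dependent kinase 1 with its cyclins then drives entry, Polo-like and Aurora kinases build the spindle, the checkpoint holds back anaphase, and the anaphase-promoting complex with its activator Cdc20 ends mitosis. Histone deacetylase inhibitors are known to arrest many tumour cells in the cell cycle. In bulk RNA, fewer dividing cells and less of a transcript in each dividing cell cannot be told apart.

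DREAM and MuvB reach these genes through a short element named the cell cycle genes homology region, CHR, read as TTTGAA, while CCAAT boxes bind the factor NF-Y. RefSeq promoters of mouse build GRCm38.p6, running from 250 bases before to 50 bases after each gene's start, were matched by symbol for 38 of the 45 listed genes. TTTGAA stood on either strand in 29 of the 38 (76.3%), against 5466 of 27025 promoters of all genes (20.2%). The related form TTCGAA stood in 3 (7.89%, against 1.8% of all promoters), and either form in 30 (78.9%, against 21.7%). CCAAT, again on either strand, stood in 29 of the 38 (76.3%, against 41.1%), and more than 1 CCAAT in 20 (52.6%, against 13.3%). A CHR form together with a CCAAT was present in 26 (68.4%), against 8.61% of all promoters. Matches of different motifs may share bases, and each was counted. A match describes the letters in this window and is not a measured binding site. The promoters of 5 members are printed because their transcripts carry the patterns below. Cdc20, Plk1 and Ccnb2 fell strongly under many deacetylase inhibitors, Bub1 moved late, and Pttg1 rose in βTC3. Capitals mark these 3 motifs and their reverse complements.
Cdc20: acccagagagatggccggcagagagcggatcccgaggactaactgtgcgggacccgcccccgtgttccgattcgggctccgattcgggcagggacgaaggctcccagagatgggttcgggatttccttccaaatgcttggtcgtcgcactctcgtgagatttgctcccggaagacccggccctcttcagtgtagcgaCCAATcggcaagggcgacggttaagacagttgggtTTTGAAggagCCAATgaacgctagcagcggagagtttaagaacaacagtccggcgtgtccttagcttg
Plk1: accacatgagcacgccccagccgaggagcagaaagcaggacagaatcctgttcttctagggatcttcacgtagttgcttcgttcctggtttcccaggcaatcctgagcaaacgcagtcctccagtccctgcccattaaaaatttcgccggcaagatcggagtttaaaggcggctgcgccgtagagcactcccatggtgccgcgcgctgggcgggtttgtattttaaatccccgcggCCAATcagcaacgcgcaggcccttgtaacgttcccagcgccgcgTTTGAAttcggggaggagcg
Ccnb2: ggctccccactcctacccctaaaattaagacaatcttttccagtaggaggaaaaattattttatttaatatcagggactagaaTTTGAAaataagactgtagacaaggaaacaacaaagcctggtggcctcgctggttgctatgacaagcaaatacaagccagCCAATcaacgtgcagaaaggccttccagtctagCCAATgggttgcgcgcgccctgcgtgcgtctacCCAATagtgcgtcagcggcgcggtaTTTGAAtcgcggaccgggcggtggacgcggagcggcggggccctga
Pttg1: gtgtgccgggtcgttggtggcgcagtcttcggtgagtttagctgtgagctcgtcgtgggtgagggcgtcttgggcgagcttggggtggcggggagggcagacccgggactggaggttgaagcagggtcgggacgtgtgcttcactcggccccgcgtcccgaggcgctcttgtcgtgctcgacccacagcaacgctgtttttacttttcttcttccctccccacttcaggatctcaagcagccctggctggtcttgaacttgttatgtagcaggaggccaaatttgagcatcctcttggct
Bub1: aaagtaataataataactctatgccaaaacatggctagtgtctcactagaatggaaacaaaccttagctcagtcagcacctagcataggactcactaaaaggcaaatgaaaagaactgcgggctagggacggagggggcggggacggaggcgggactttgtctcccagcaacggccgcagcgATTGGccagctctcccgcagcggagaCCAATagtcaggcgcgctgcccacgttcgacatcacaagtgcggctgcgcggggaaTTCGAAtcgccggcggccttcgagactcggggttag
The Cdc20 promoter (chr4:118437294-118437593, minus strand) has a CHR at base -18 and CCAAT at -53 and -8, counted from the start of transcription. In Plk1 (chr7:122159185-122159484, plus strand) the CHR begins at 31 and the CCAAT at -14. Ccnb2 (chr9:70421505-70421804, minus strand) carries a CHR at -167 and at 5, and CCAAT at -87, -54 and -21. Bub1 (chr2:127831810-127832109, minus strand) has the TTCGAA form at 15 and CCAAT at -68 and -42, the first of them on the other strand. The Pttg1 window (chr11:43425932-43426231, minus strand) holds none of these letters, and neither do those of Birc5, Mad2l1, Ncaph and Nusap1.

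The labelled lines were checked against marker genes in the DMSO arrays, as mean log2 intensity over 42 αTC1 and 34 βTC3 arrays. Gcg stood at 12.43 in αTC1 and 9.24 in βTC3, and the alpha cell factor Irx2 at 8.71 and 5.09. Ins2 stood at 4.53 in αTC1 and 13.24 in βTC3, and Pdx1 at 4.09 and 9.37. The beta cell glucose transporter Slc2a2 was at 2.88 and 3.04, near the bottom of the scale in both, and somatostatin was at 12.7 in βTC3 and 4.13 in αTC1. Fibroblast, endothelial and leukocyte markers lay between 2.69 and 3.57, apart from Cd68 at 4.09 in αTC1. Of the acinar markers, Cela1 was at 6.18 in αTC1 and 3.02 in βTC3, while Cpa1 and Amy2a5 lay between 2.81 and 3.495 in both. The beta cell marker G6pc2 was at 8.50 in αTC1 and 10.85 in βTC3. A log2 intensity of 5.01 was the median gene and 7.18 the upper quartile, so 43 of the 44 members stood at or above the 65.1th percentile of genes. Only Kif23 was dim, with DMSO means of 3.47 in αTC1 and 4.21 in βTC3.

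In DMSO the mitosis genes were mostly higher in βTC3 than in αTC1. At 24 h, 29 of the 44 were lower in αTC1, against 29.5% of all genes, and 5 were higher, against 31.8% (limma, Benjamini-Hochberg adjusted p under 0.05). The median difference, αTC1 minus βTC3, was -0.37 on the log2 scale. At 1 h, 31 were lower in αTC1 (29.9% of all genes) and 2 higher (29.4%), and at 6 h 21 were lower (28.8%) and 9 higher (31%). Nusap1, which bundles spindle microtubules, had the lowest difference at -1.31, followed by Racgap1 of the central spindle at -1.13 and the condensin core Smc4 at -1.01. Plk1 differed by 0.05 (limma adjusted p = 0.695) and Aurka by 0.07 (limma adjusted p = 0.538). Pttg1, the securin that holds separase in check, was the large exception. It was higher in αTC1 by 1.69 (SE 0.0871, limma adjusted p = 4.41e-29).

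Time in culture moved some members in DMSO as well, mainly in αTC1. In αTC1, 12 of 44 were higher at 6 h than at 1 h (1.39% of all genes) and 12 at 24 h (4.09%). Without a term for the batch numbered in the sample titles these counts were 7 and 5. In βTC3, 4 members (Cks2, Mad2l1, Ncapg and Anln) were higher at 24 h than at 1 h, against 6.11% of all genes. That count is not far from the share of all genes, and at 6 h 0 members were higher (0.999%). Each compound was therefore compared with DMSO of its own line and time.

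After 1 h no mitosis gene was called changed under any compound. Over the 29 compounds, 0 of 1276 tests of members passed in αTC1, against 0.0327% of tests over all genes, and 0 of 1276 in βTC3, against 0.0943% (limma). At an unadjusted limma p under 0.05, between 0 and 9 of the 44 members passed per compound in αTC1 and between 0 and 15 in βTC3. The members' median change per compound lay between -0.12 and 0.07 in αTC1 and between -0.13 and 0.05 in βTC3.

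After 6 h, 15 compounds had lowered at least 22 of the 44 members in both lines. They were all 8 hydroxamic acids, both cyclic tetrapeptides, and the code-named BRD-A94377914, BRD-K17311666, BRD-K22912318, BRD-K90919562 and BRD-K92415738. Pooled over these compounds, 473 of 660 tests of members called them lower in αTC1, against 15.4% over all genes, and 542 of 660 in βTC3, against 17.1%. Each of the 15 lowered 29 to 33 members in αTC1 and 34 to 38 in βTC3. Their median changes ran from -0.52 to -0.78 in αTC1 and from -0.52 to -0.94 in βTC3, while the median over all genes lay between -0.03 and 0.03. The 15 compounds were grouped by these calls, so the pooled counts describe the group and test nothing further. Each of these comparisons in a line and time shares its DMSO arrays with the others.

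Cdc20, the activator of the anaphase-promoting complex, fell furthest at 6 h. Its log2 levels in αTC1 under DMSO had a lowest value of 8.99, a median of 9.54 and a highest of 9.82 over 14 arrays. The 3 ITF-2357 arrays read 7.20, 7.58 and 7.32, and the 3 scriptaid arrays 7.45, 7.27 and 7.32. All 6 lay below every DMSO array, by more than the whole DMSO range. The fitted change was -2.06 for ITF-2357 (SE 0.137, limma adjusted p = 9.09e-22) and -2.10 for scriptaid (SE 0.138, limma adjusted p = 3.26e-21). In βTC3, DMSO ran from 9.45 to 9.74 with a median of 9.57 over 10 arrays, and ITF-2357 read 7.60, 7.96 and 7.74, a change of -1.74 (SE 0.108, limma adjusted p = 8.13e-23). Scriptaid read 8.30, 8.18 and 8.12 in βTC3, a change of -1.44 (SE 0.107, limma adjusted p = 2.39e-18). The groups did not overlap in either line.

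By role, the kinases and cyclins of mitotic entry were lower in 103 of 120 member and compound pairs in αTC1 and 105 of 120 in βTC3 at 6 h, with median changes of -0.80 and -0.90. Plk1, which drives centrosome maturation and spindle assembly, had a median change over the 15 compounds of -1.48 in αTC1 and -1.35 in βTC3. Aurka, the centrosomal Aurora kinase, stood at -1.45 and -1.07, and the S and G2 cyclin Ccna2 at -1.19 in both lines. Cyclin B2, Ccnb2, fell more in βTC3 (-1.39) than in αTC1 (-0.81), values that were not tested against each other over compounds. Cdk1 itself moved less, by -0.67 and -0.64. All of these, and the centrosomal kinase Nek2 at -0.76 and -0.81, were called lower under all 15 compounds in both lines. Cks2, a small subunit bound to Cdk1, was called under 13 and 15.

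Motors and microtubule proteins of the spindle were lower in 120 of 135 pairs in αTC1 and 125 of 135 in βTC3, with medians of -0.83 and -0.97. Kif20a, a kinesin of the central spindle, had medians of -1.37 and -0.74, and Kif11, which pushes spindle poles apart, -0.95 and -0.88. Nusap1 had -0.79 and -1.26, and Tpx2, the activator of Aurka on microtubules, -0.63 and -0.998. The chromatin-bound kinesin Kif4, the microtubule-depolymerising kinesin Kif2c and the hyaluronan receptor Hmmr, which also binds the spindle, fell under all 15 compounds in both lines, and Kif22 under 14. The dim Kif23 was called under 1 and 6. The chromosomal passenger complex, Aurkb with Incenp and Birc5, was lower in 41 of 45 pairs in αTC1 and in 45 of 45 in βTC3. Genes of cytokinesis were lower in 46 of 60 and 60 of 60 pairs. Here the central spindle organiser Racgap1 was lower under 4 compounds in αTC1 and under 15 in βTC3, whereas the actin-binding Anln was lower under all 15 in both. Ect2, which activates RhoA for the contractile ring, was called under 14 and 15, and Prc1 under 13 and 15.

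Other roles moved in part at 6 h. Condensin and topoisomerase genes were lower in 56 of 90 pairs in αTC1 and 77 of 90 in βTC3. Smc4 was at -1.06 and -1.02 and Top2a, the enzyme that untangles sister chromatids, at -0.85 and -1.06, and the condensin subunit Ncapd2 at -0.65 and -0.71. Smc2 was called under 10 and 14 compounds, Ncaph under 1 and 15, and Ncapg under 0 and 3. In the group of anaphase and exit, lower in 47 of 75 and 58 of 75 pairs, Ube2c stood at -0.98 and -1.39 and Cdca3 at -0.52 in both lines, while Cdca5 was called under 2 and 13 compounds. Among centromere and kinetochore genes 30 of 75 and 51 of 75 pairs were lower, led by Cenpa, the histone variant of the centromere, at -1.54 and -1.33. Ndc80 was called under 6 and 15 compounds, Cenpf under 6 and 14, the kinetochore motor Cenpe under 3 and 1, and the spindle protein Spag5 under 0 and 6. The checkpoint genes had the smallest median changes of the roles, -0.11 in αTC1 and -0.14 in βTC3, with 30 of 60 and 21 of 60 pairs lower. Bub1b was lower under 15 and 11 compounds and Mad2l1 under 15 and 10, but the checkpoint kinases Bub1 and Ttk were called lower by limma under none of the 15 in either line. Median changes were 0.20 and 0.03 for Bub1 and 0.05 and -0.06 for Ttk.

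**Figure D1:**
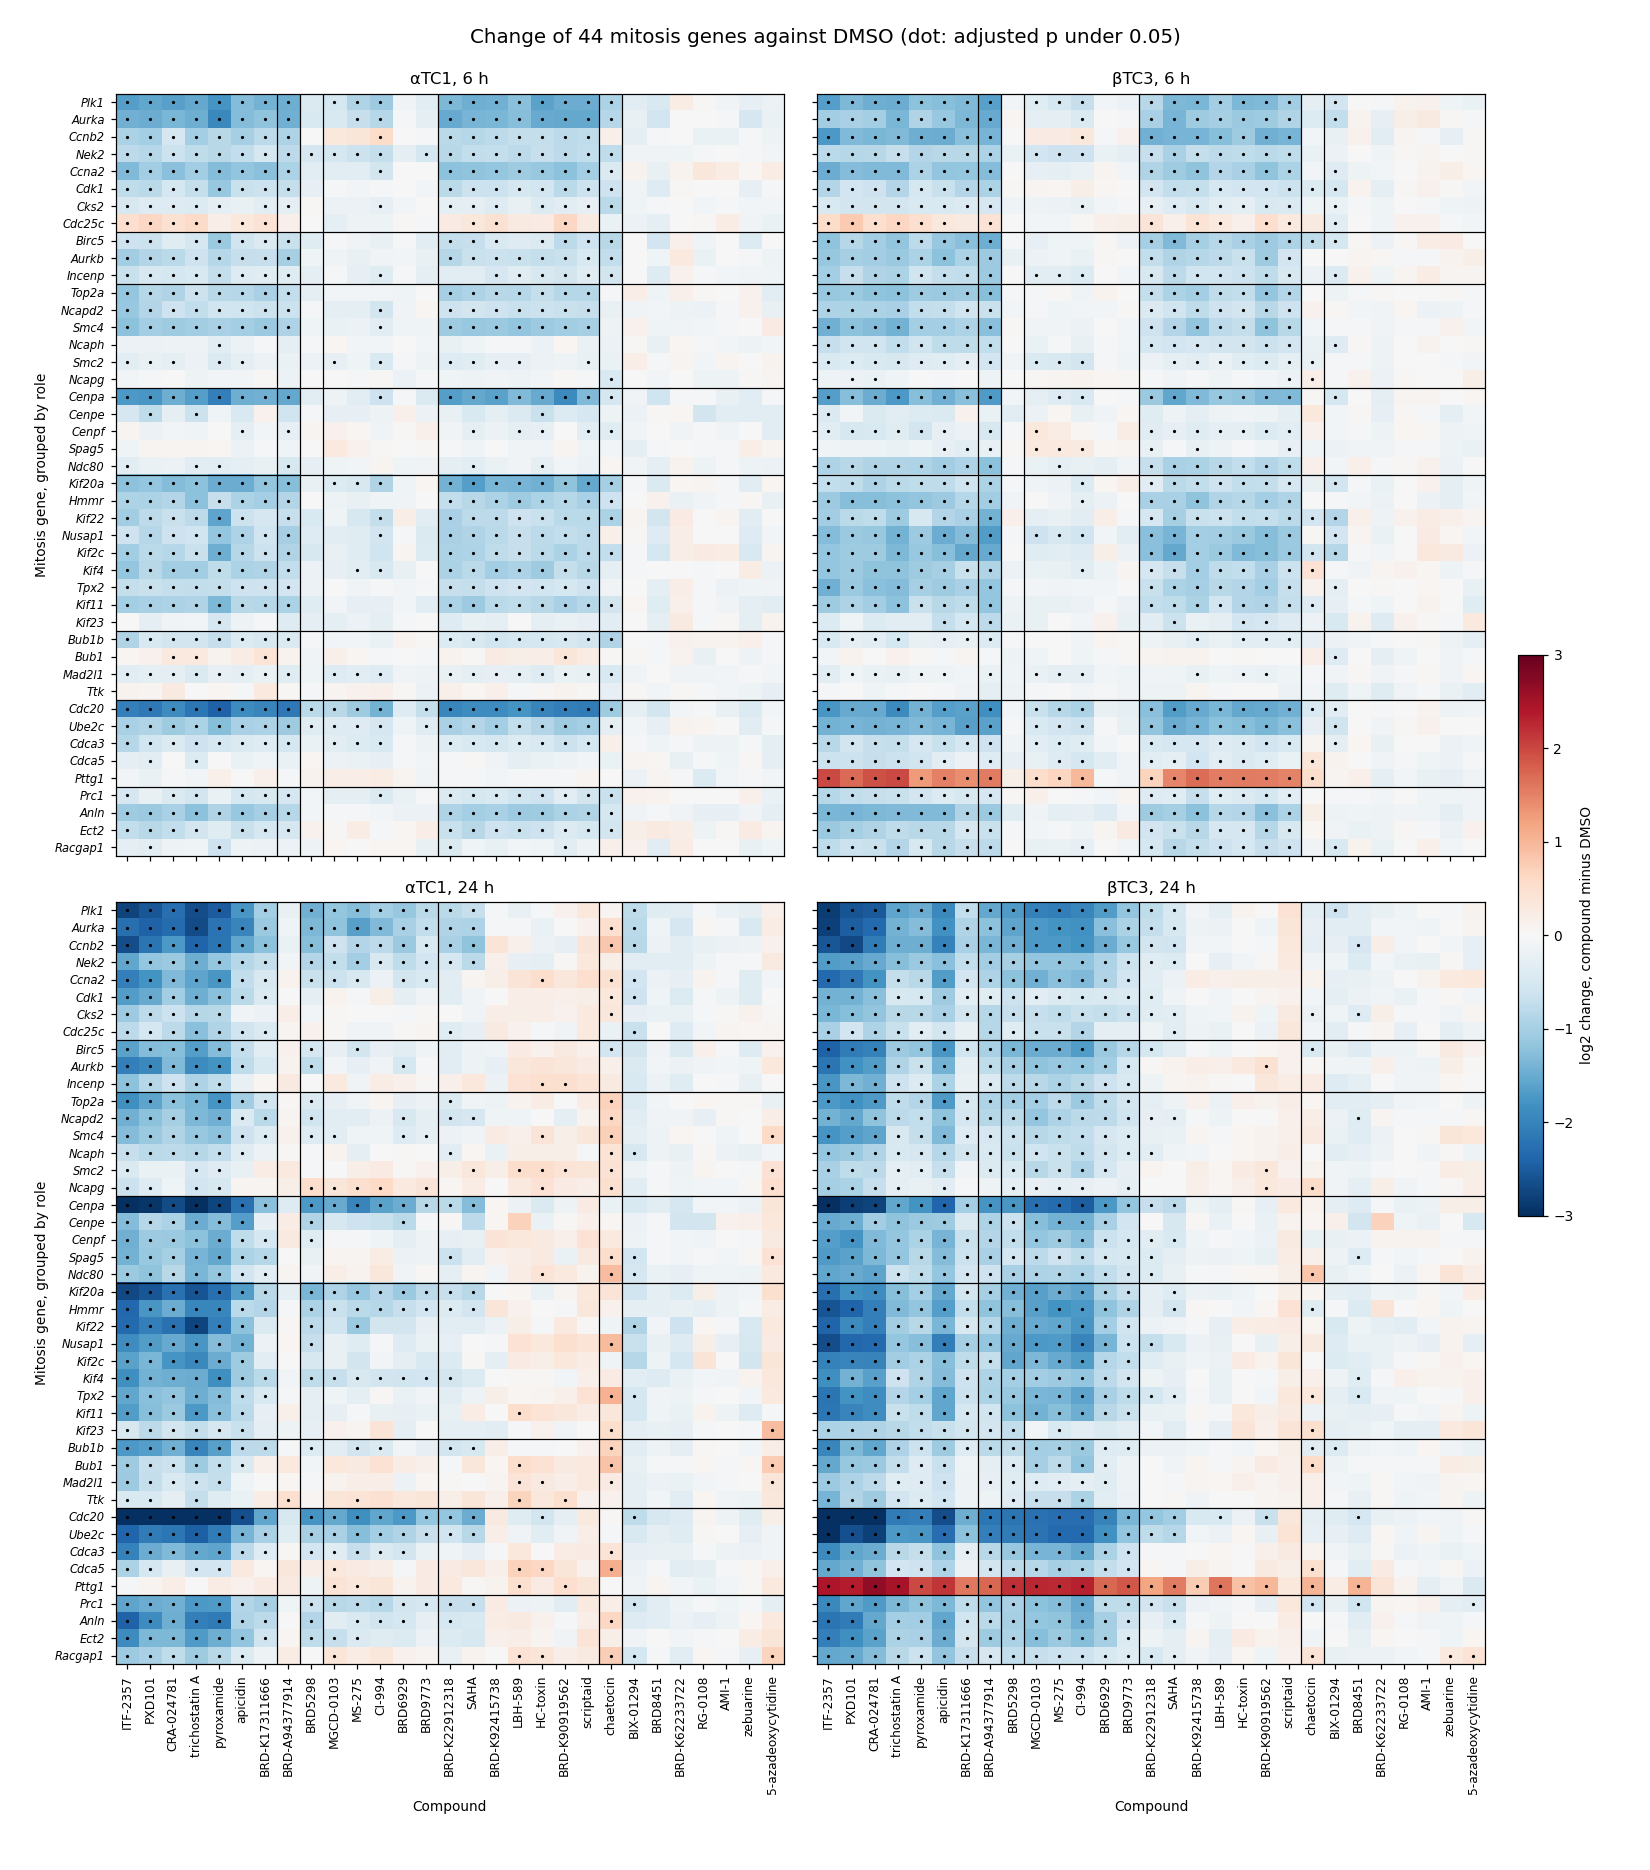
Log2 change against DMSO of the same line and time for the 44 members, ordered by role, under 29 compounds at 6 h and 24 h in each line; colours saturate at a change of 3 in size and dots mark a limma adjusted p under 0.05. At 6 h most deacetylase inhibitors share a blue pattern, and at 24 h it is deeper under some compounds and gone under others, while Pttg1 turns red in βTC3.

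At 6 h the anilides lowered fewer members than the hydroxamic acids did, mostly at unequal doses. At 6 h, MS-275, MGCD-0103 and CI-994 together gave 36 lower calls in 132 tests of members in αTC1, against 8.27% over all genes, and 38 in βTC3, against 11.1%. CI-994 lowered 19 members in αTC1 and 17 in βTC3, MS-275 lowered 9 and 12, and MGCD-0103 lowered 8 and 9. In αTC1 those counts ran from 12 to 18, 5 to 9 and 3 to 10, in this order, with a replicate left out, and for CI-994 in βTC3 from 10 to 15. With replicate 1, 2 or 3 of the compounds left out, the pooled counts ran from 20 to 32 and from 25 to 33. The lowest of these in αTC1, and a count of 20 without the batch term, are below the full count by over 1.5 times. Median changes of the members were -0.24 and -0.22 for CI-994, -0.19 and -0.16 for MS-275 and -0.16 and -0.19 for MGCD-0103. Ccnb2 went against these medians at 6 h. It changed by 0.56 in αTC1 and 0.32 in βTC3 under CI-994, and by 0.36 and 0.25 under MS-275. CI-994 was given at 10 µM and the other anilides at lower doses.

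By 24 h the compounds had parted. For 7 of the 15 compounds at least 22 members were still lower in both lines, namely ITF-2357, trichostatin A, pyroxamide, PXD101, CRA-024781, apicidin and BRD-K17311666. Pooled, 270 of 308 tests of members were lower in αTC1, against 19.1% over all genes, and 290 of 308 in βTC3, against 16.2%, counts that describe a group formed by these calls. For another 7 fewer than 22 members were lower in either line. BRD-A94377914 parted by line. The plot of medians by compound follows these courses.

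**Figure D2:**
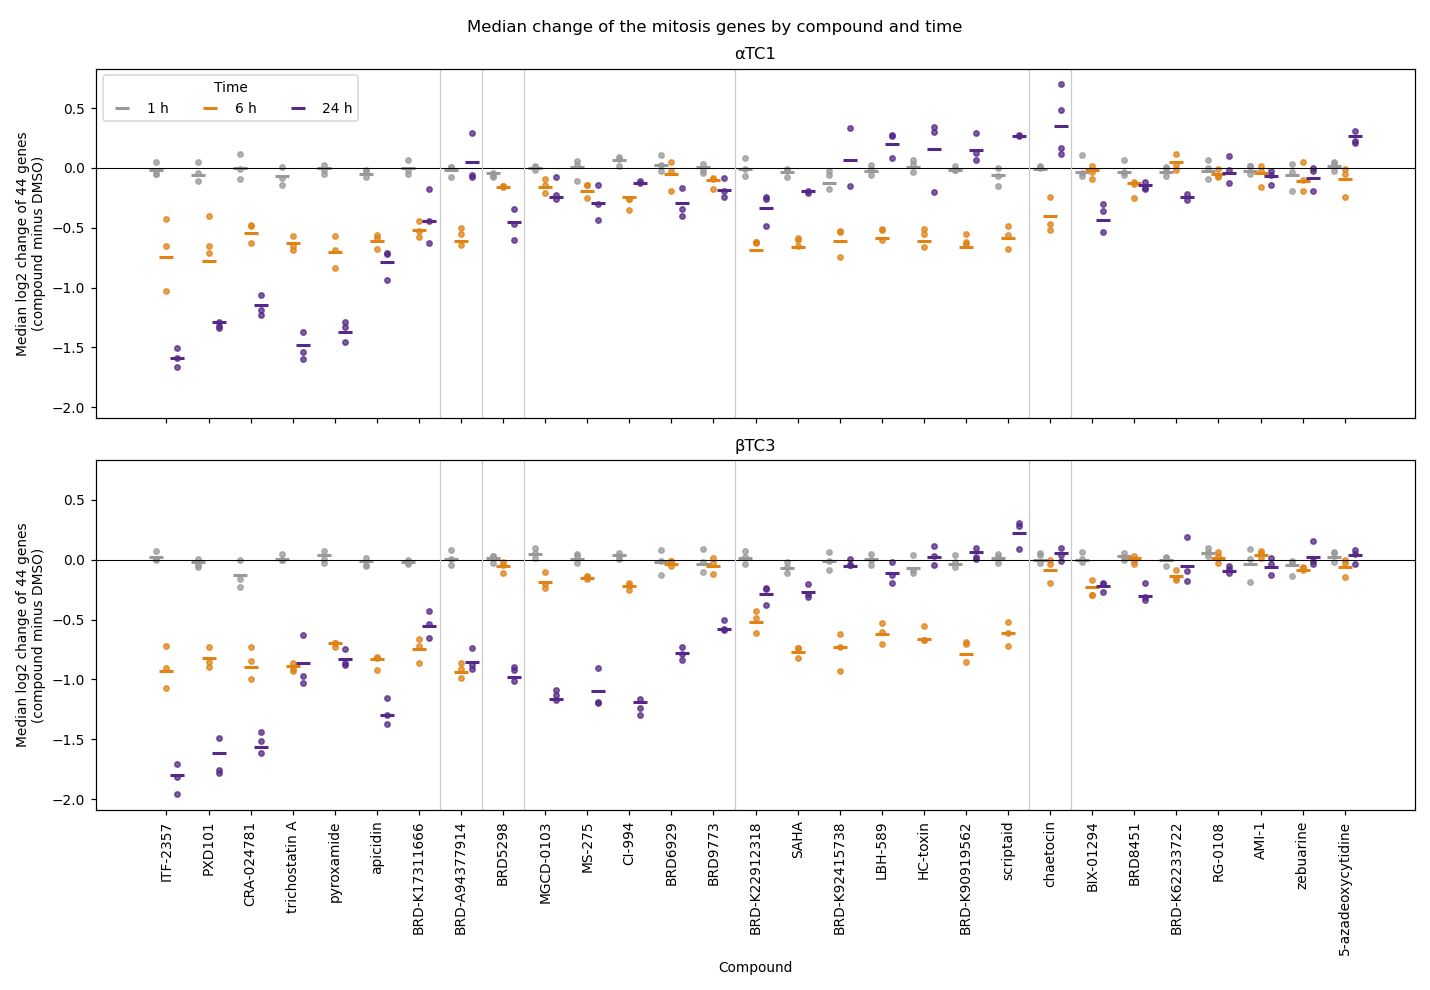
Median log2 change of the 44 members against DMSO for each compound at 1, 6 and 24 h in αTC1 and βTC3; bars are medians of fitted changes and points the medians of single arrays after the batch adjustment. All 1 h medians lie near 0, and at 24 h the ITF-2357 bars reach -1.59 and -1.80 while the scriptaid bars stand at 0.26 and 0.22.

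ITF-2357 at 10 µM had the lowest 24 h median of the 29 compounds in both lines, -1.59 in αTC1 and -1.80 in βTC3. It lowered 43 of 44 members in αTC1, against 20.3% of all genes, and 43 in βTC3, against 19%, and 36 and 40 of them by at least 2-fold. From 6 h to 24 h its response deepened for 37 members in αTC1 (10.4% of all genes) and 40 in βTC3 (10.4%), as tested on the difference of the responses. Trichostatin A, at 0.22 µM, lowered 43 in αTC1 (20.3%) and 43 in βTC3 (15.4%), with medians of -1.48 and -0.86. Pyroxamide lowered 42 (20.3%) and 42 (12.8%), with medians of -1.37 and -0.83. PXD101 had medians of -1.29 and -1.61, CRA-024781 -1.15 and -1.56, and apicidin -0.79 and -1.30. BRD-K17311666 was weakest of the 7, with 25 lower in αTC1 (15.3%), 33 in βTC3 (10.6%) and medians of -0.44 and -0.55. Leaving out replicate 1, 2 or 3 took its count in βTC3 to between 20 and 32.

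Single arrays show how far these genes fell at 24 h. For Cdc20 in αTC1, DMSO ran from 8.86 to 9.64 with a median of 9.26 over 14 arrays, and ITF-2357 read 6.31, 5.57 and 5.33. Every ITF-2357 array was thus more than 2 log2 units below the lowest DMSO array. The fitted change was -3.65 (SE 0.203, limma adjusted p = 4.35e-25). In βTC3, DMSO ran from 9.15 to 9.79 with a median of 9.64 over 12 arrays, and ITF-2357 read 6.61, 6.34 and 6.17, a change of -3.54 (SE 0.161, limma adjusted p = 4.11e-30).

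Cenpa behaved alike. In αTC1 its DMSO arrays ran from 8.13 to 8.83 and ITF-2357 read 5.06, 5.08 and 5.40, a change of -3.41 (SE 0.204, limma adjusted p = 1.7e-23). In βTC3 DMSO ran from 8.39 to 9.33 and ITF-2357 read 5.88, 6.16 and 6.14, a change of -3.17 (SE 0.168, limma adjusted p = 9.86e-27). Plk1 was at 7.71 to 8.66 in αTC1 under DMSO and at 5.78, 4.97 and 5.65 under ITF-2357 (-2.77, SE 0.212, limma adjusted p = 1.43e-18). In none of these did a treated array reach the DMSO range.

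Some members with smaller changes were still separate from DMSO, such as the 4 below. Not all were, since Ttk in αTC1 ran from 6.22 to 7.41 under ITF-2357 against 6.90 to 7.68 in DMSO. Top2a ran from 9.56 to 10.16 under DMSO in αTC1 and read 7.87, 8.08 and 8.21 under ITF-2357, a change of -1.83. The survivin gene Birc5, which targets the passenger complex to centromeres, ran from 8.43 to 9.38 and read 7.84, 7.58 and 7.06, a change of -1.60 (limma adjusted p = 7.82e-14). Prc1, which bundles antiparallel microtubules at the spindle midzone, ran from 8.94 to 9.61 and read 8.08, 7.75 and 7.60, a change of -1.59. Bub1b, the checkpoint protein BubR1, ran from 7.57 to 8.13 and read 6.61, 5.85 and 5.96, a change of -1.72. These 4 genes changed in βTC3 by -1.72, -2.42, -1.94 and -1.96 in the same order, and again no array overlapped DMSO.

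**Figure D3:**
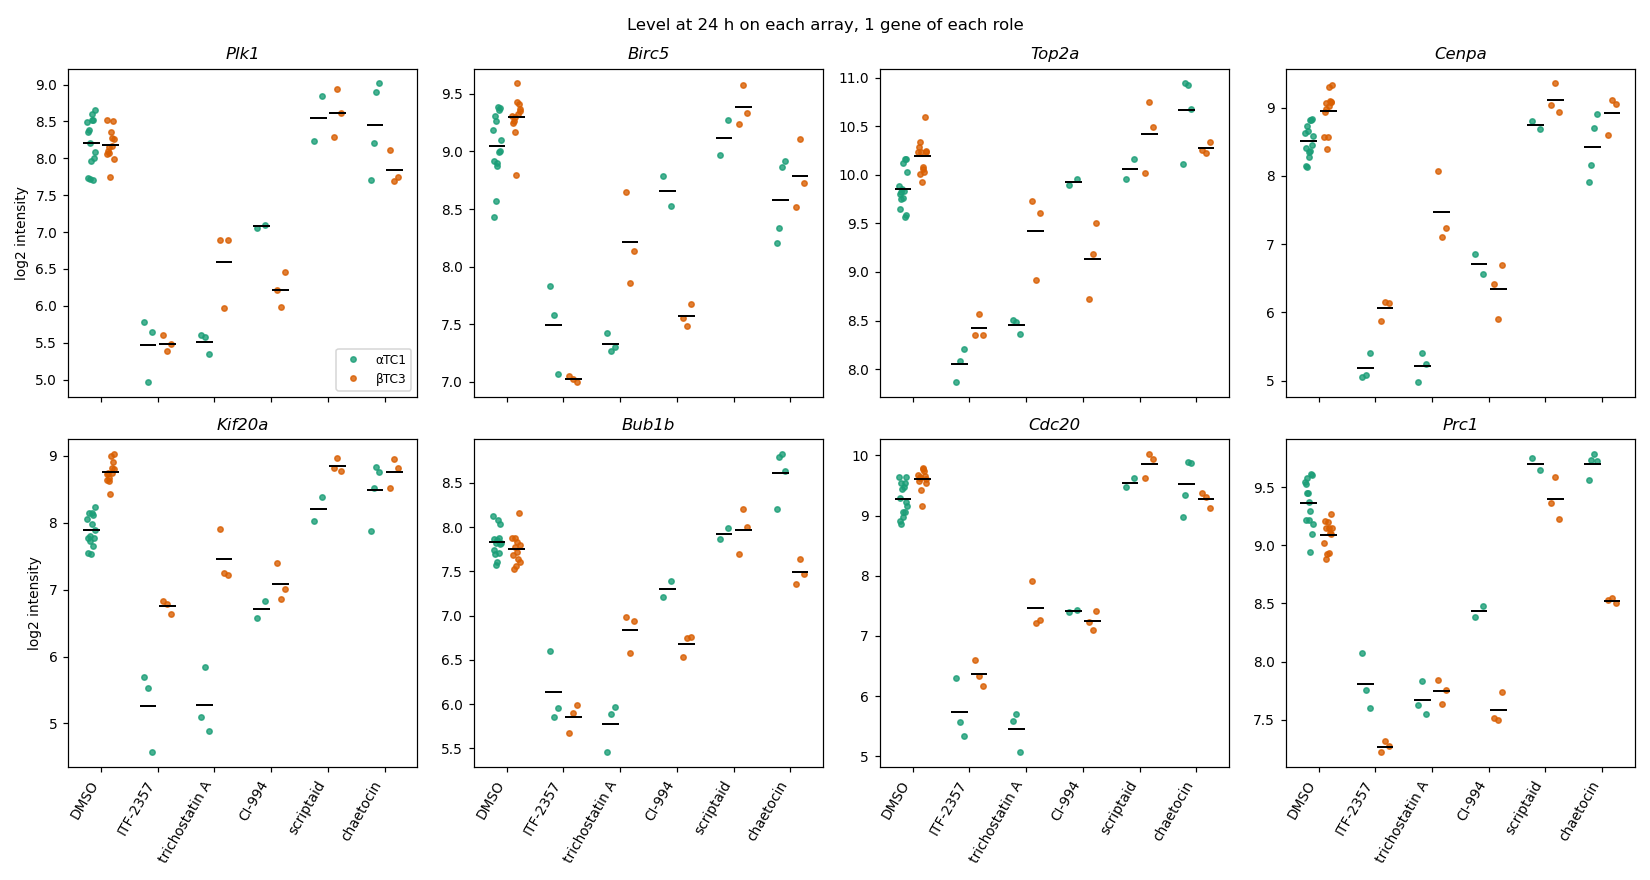
Log2 intensity on each array at 24 h for the member with the largest mean change in each role, under DMSO and 5 compounds in both lines; each point is 1 array, black bars are group means, and the vertical axes differ between genes. ITF-2357 and trichostatin A sit below DMSO, CI-994 sits low in βTC3 but inside the DMSO range for Top2a and Birc5 in αTC1, and scriptaid is at or near DMSO.

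Over the 7 compounds every role had joined by 24 h. Entry kinases and cyclins were lower in 54 of 56 pairs in αTC1 and 55 of 56 in βTC3, and motors in 58 of 63 and 63 of 63. Centromere and kinetochore genes, partly spared at 6 h, were lower in 34 of 35 in both lines, and cytokinesis genes in 27 of 28 and 28 of 28. Checkpoint genes were lower in 21 of 28 and 25 of 28 pairs. Bub1 now was lower under 6 of the 7 compounds in each line, with medians of -0.69 and -0.70, and Ttk under 3 and 6, with medians of -0.36 and -0.58. The largest medians over the 7 compounds were those of Cdc20 (-3.39 and -2.67), Cenpa (-2.77 and -2.39), Plk1 (-2.50 and -1.93), Aurka (-2.27 and -1.83) and the ubiquitin-conjugating enzyme of anaphase, Ube2c (-2.09 and -2.28). Smc2 (-0.22 and -0.70) and Ncapg (-0.39 and -0.32) of condensin had among the smallest.

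For SAHA, LBH-589, scriptaid, HC-toxin, BRD-K22912318, BRD-K90919562 and BRD-K92415738 the members were low at 6 h and mostly nearer to DMSO at 24 h. Pooled, 31 of 308 tests were lower at 24 h in αTC1, against 7.3% over all genes, and 38 in βTC3, against 3.12%. With a replicate left out these ran from 18 to 30 and from 20 to 37. The difference between the 24 h and 6 h responses was called higher in 193 of 308 tests in αTC1 (8.65% of all genes) and 197 in βTC3 (10.1%). These 7 compounds were grouped by their counts at both times, so that difference restates the grouping and is a description. Those counts ran from 141 to 177 and from 141 to 180 with a replicate left out, and were 146 and 134 without the batch term. Under scriptaid, 32 members were called higher in that difference in αTC1 and 38 in βTC3, with its own share of all genes not given here. No member was called against DMSO at 24 h under scriptaid by limma, though 12 in αTC1 and 18 in βTC3 had an unadjusted p under 0.05. The share of all genes called there is not given here either. That count of 0 alone therefore does not set the members apart from other genes.

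Cdc20 shows the return under scriptaid. At 24 h the 2 αTC1 arrays read 9.47 and 9.63, inside the DMSO range of 8.86 to 9.64. The 3 βTC3 arrays read 9.63, 10.02 and 9.94, of which 2 lay above the highest DMSO array at 9.79. Against DMSO the changes were 0.30 (limma adjusted p = 0.821) and 0.34 (limma adjusted p = 0.681). From 6 h to 24 h the response rose by 2.40 in αTC1 (SE 0.225, limma adjusted p = 2.65e-20) and by 1.78 in βTC3 (SE 0.208, limma adjusted p = 5.06e-14). Plk1 rose by 1.79 and 1.48 in the same test.

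The return was not equally full. SAHA still lowered 12 members in αTC1 (11% of all genes) and 17 in βTC3 (6.32%), and BRD-K22912318 lowered 18 (12.9%) and 19 (8.85%). With a replicate left out, SAHA gave 5 to 13 and 6 to 16, and BRD-K22912318 gave 8 to 16 and 8 to 18. LBH-589 and HC-toxin, in contrast, raised some members in αTC1 at 24 h, LBH-589 8 (7.49%) and HC-toxin 9 (10.6%), with left-out ranges of 4 to 8 and 3 to 14. Both compounds share the DMSO arrays. The cohesion factor Cdca5, sororin, rose by 0.70 under LBH-589 (SE 0.132, limma adjusted p = 5.28e-05) and by 0.62 under HC-toxin (SE 0.13, limma adjusted p = 0.000163). Cdc20 stayed low in some of these groups. Its median change over the 7 compounds at 24 h was -0.36 in αTC1 and -0.46 in βTC3, and it was called lower under 3 and 4 of them.

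The lines parted under each of the anilides at 24 h. CI-994 lowered 14 members in αTC1 (16.2% of all genes) and 42 in βTC3 (16.4%), with medians of -0.13 and -1.19. MS-275 lowered 18 (19.5%) and 43 (15.7%), with medians of -0.30 and -1.10, and MGCD-0103 15 (16.1%) and 42 (15.6%), with medians of -0.24 and -1.17. The difference between lines was tested itself, as the αTC1 response minus the βTC3 response. It was higher for 40 of 44 members under CI-994 (9.11% of all genes), 38 under MGCD-0103 (8.83%) and 34 under MS-275 (9.85%), with medians of 0.93, 0.81 and 0.75. Only 2 CI-994 arrays remained in αTC1 at 24 h.

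Top2a under CI-994 read 9.89 and 9.96 in αTC1, inside its DMSO range, and 8.72, 9.18 and 9.50 in βTC3, where DMSO ran from 9.93 to 10.59. The change was 0.08 in αTC1 (limma adjusted p = 0.759) and -1.08 in βTC3 (limma adjusted p = 6.88e-12), and their difference was 1.17 (limma adjusted p = 1.44e-10). Birc5 likewise overlapped DMSO in αTC1, at 8.78 and 8.52, and lay below it in βTC3, at 7.56, 7.48 and 7.68 against 8.80 to 9.59. Nusap1 gave the largest difference in this direction, -0.06 in αTC1 and -1.99 in βTC3 (difference 1.93, SE 0.275, limma adjusted p = 6.66e-10). Pttg1 differed the other way, at 0.37 and 2.31 (difference -1.95, limma adjusted p = 3.75e-17). The checkpoint kinase Ttk was at 0.46 and -0.94 (difference 1.41, limma adjusted p = 2.43e-09).

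Part of the list did fall in αTC1 under CI-994. Cdc20 read 7.40 and 7.43, below all 14 DMSO arrays, a change of -1.56 (SE 0.244, limma adjusted p = 2.36e-07). In βTC3 it read 7.24, 7.10 and 7.41, a change of -2.28 (SE 0.146, limma adjusted p = 5.26e-22). Between lines Cdc20 differed by 0.71 (SE 0.224, limma adjusted p = 0.0112). Cenpa, at 6.85 and 6.56 (-1.59), and Plk1, at 7.06 and 7.10 (-1.01, limma adjusted p = 0.000932), also lay below DMSO in αTC1. From 6 h to 24 h the 3 anilides deepened 27 of 132 member responses in αTC1 (12% of all genes) and 117 of 132 in βTC3 (7.2%).

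BRD-A94377914, at 3 µM, split by line in another way. At 6 h it lowered 32 members in αTC1 (13.3% of all genes) and 38 in βTC3 (17.9%). At 24 h it lowered 0 in αTC1 (4.55% of all genes; 7 members had an unadjusted limma p under 0.05) and 40 in βTC3 (13%), with medians of 0.05 and -0.85. The difference between lines was higher for 39 members (4.71% of all genes; median 0.89). In αTC1 the response rose from 6 h to 24 h for 31 members (5.4%), or 16 to 35 with a replicate left out.

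Trichostatin A and pyroxamide went the other way between lines. The αTC1 response minus the βTC3 response at 24 h was lower for 30 members under trichostatin A (15.8% of all genes; median -0.62) and 25 under pyroxamide (14.5%; median -0.53). Cdc20 under trichostatin A changed by -3.81 in αTC1 and -2.10 in βTC3 (difference -1.70, SE 0.201, limma adjusted p = 2.11e-14), and Kif20a by -2.59 and -1.27 (difference -1.32, limma adjusted p = 7.06e-11). From 6 h to 24 h trichostatin A deepened 40 member responses in αTC1 (11.7%) and 10 in βTC3 (15.1%), and pyroxamide 28 (15%) and 5 (5.91%). The trichostatin A count in βTC3 ran from 5 to 14 with a replicate left out. For ITF-2357 the difference between lines was higher for 16 members (36.4% of them, against 16.1% of all genes; median 0.26), or 7 to 11 with a replicate left out.

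**Figure D4:**
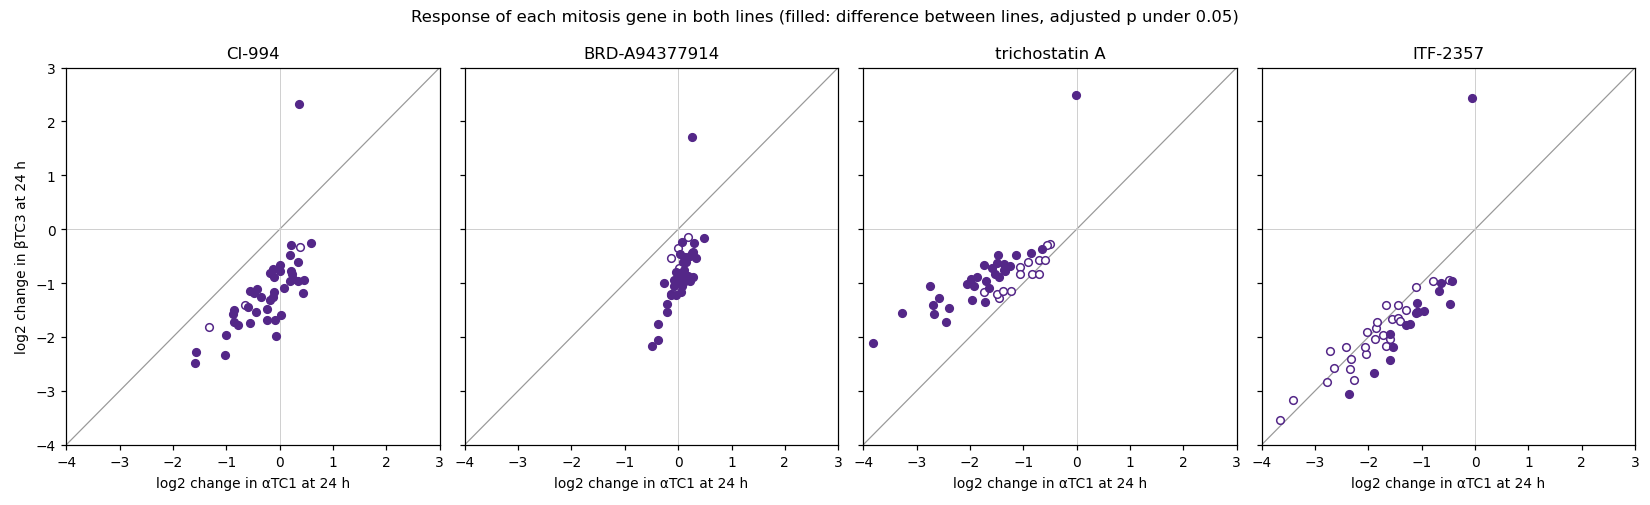
Log2 change at 24 h in αTC1 (horizontal) and βTC3 (vertical) for each of the 44 members under CI-994, BRD-A94377914, trichostatin A and ITF-2357; filled points have a limma adjusted p under 0.05 for the difference between lines. Under CI-994 and BRD-A94377914 most points lie below the diagonal, with medians of -0.13 and 0.05 in αTC1 against -1.19 and -0.85 in βTC3, and under trichostatin A most lie above it.

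Another 3 code-named compounds acted late. BRD5298 lowered 3 members in αTC1 (0.923% of all genes) and 0 in βTC3 (0.423%; 3 at an unadjusted limma p under 0.05) at 6 h, and 25 (17% of all genes) and 43 (12.3%) at 24 h, with 24 h medians of -0.45 and -0.98. BRD6929 lowered 18 (13.3%) and 39 (12%) at 24 h, with medians of -0.29 and -0.78. BRD9773 lowered 13 (8.7%) and 36 (9.19%), with medians of -0.18 and -0.58, and 7 to 13 and 22 to 34 with a replicate left out. The medians were lower in βTC3 for all of them.

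Chaetocin, a fungal inhibitor of histone lysine methyltransferases, was the compound under which most members rose in αTC1, at 24 h. At 6 h it had lowered 24 members in αTC1 (16.9% of all genes) and 7 in βTC3 (11.9%), led in αTC1 by Cdc20 (-1.06, limma adjusted p = 1.16e-09) and Kif20a (-0.997). At 24 h it raised 23 in αTC1 (23.4%) and 8 in βTC3 (15.4%). The βTC3 counts of 7 at 6 h and 8 at 24 h are not far from those shares. Chaetocin also raised and lowered many other genes, as these shares show. From 6 h to 24 h the αTC1 response rose for 35 members (15.1%).

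Top2a in αTC1 read 10.11, 10.94, 10.92 and 10.68 on the 4 chaetocin arrays, of which 3 lay above the highest DMSO array at 10.16, a change of 0.69 (SE 0.115, limma adjusted p = 5.97e-07). Tpx2 rose by 1.04 (SE 0.117, limma adjusted p = 8.61e-12) and Cdca5 by 1.10 (SE 0.121, limma adjusted p = 4.25e-12). Birc5 was the member that chaetocin lowered in αTC1 at 24 h, by -0.57 (limma adjusted p = 0.00101). In βTC3 the kinetochore protein Ndc80 rose by 0.83 and Bub1 by 0.55, while Prc1 fell, reading 8.53, 8.54 and 8.50 against 8.88 to 9.27 (-0.56, limma adjusted p = 2.07e-06). The difference between lines was lower for 19 members at 6 h (8.68% of all genes; median -0.38) and higher for 19 at 24 h (14.6%; median 0.31). Those counts ran from 8 to 14 and from 12 to 23 with a replicate left out, and the βTC3 count of 7 at 6 h from 2 to 8.

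BIX-01294, an inhibitor of the histone methyltransferase G9a, gave smaller and less stable changes. It lowered 20 members in βTC3 at 6 h (5.73% of all genes) and 14 in αTC1 at 24 h (0.881%), but 0 in αTC1 at 6 h (2.38%; 5 members had an unadjusted limma p under 0.05) and 2 in βTC3 at 24 h (0.339%). With a replicate left out the counts of 20 and 14 ran from 4 to 18 and from 0 to 11. Among the αTC1 genes were Ccnb2 (-0.83, limma adjusted p = 0.000338), the Cdk1-activating phosphatase Cdc25c (-0.67) and Cdk1 (-0.63).

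5-Azadeoxycytidine raised 8 members in αTC1 at 24 h (2.57% of all genes), 4 to 7 with a replicate left out. The largest of these changes were those of the dim Kif23 at 0.93 (limma adjusted p = 1.86e-05) and of Bub1 at 0.77. BRD8451 lowered 8 in βTC3 at 24 h (1.3%), 1 to 5 with a replicate left out, the largest being Prc1 at -0.60. AMI-1, RG-0108 and BRD-K62233722 had 0 members called in any line at any time by limma, with 0 to 10 at an unadjusted p under 0.05 at 6 h and 24 h. Zebuarine had 1 member called over all lines and times. No share of all genes is given here for zebuarine, AMI-1, RG-0108 or BRD-K62233722. Their counts alone therefore do not set the members apart from other genes.

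Of the compounds given at 10 µM, 3 belong to known classes of deacetylase inhibitor and were tested against each other, ITF-2357 and pyroxamide as hydroxamic acids and CI-994 as an anilide, with adjustment over all genes and the 3 pairs together. At 24 h in αTC1 both hydroxamic acids left the members lower than CI-994 did. ITF-2357 minus CI-994 was lower for 42 of 44 (8.58% of all genes; median -1.44) and pyroxamide minus CI-994 for 42 (7.22%; median -1.15). For Plk1 those differences were -1.76 (95% interval -2.39 to -1.13, limma adjusted p = 2.37e-05) and -1.49 (-2.13 to -0.85, limma adjusted p = 0.00038). ITF-2357 was lower than pyroxamide for 2 members there (1.81%), and for Plk1 the difference was -0.27 with an interval of -0.81 to 0.27.

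In βTC3 at 24 h the order changed. ITF-2357 was lower than pyroxamide for 41 members (8.41% of all genes; median -1.07) and lower than CI-994 for 31 (10.1%; median -0.69). Pyroxamide was higher than CI-994 for 17 members (6.55%; median 0.37), or 6 to 13 with a replicate left out. Cdc20 differed by -1.49 between ITF-2357 and pyroxamide (95% interval -1.87 to -1.11, limma adjusted p = 5.16e-09). Between pyroxamide and CI-994 it differed by 0.23, with an interval of -0.16 to 0.62 that includes 0. Cenpa was higher under pyroxamide than CI-994 by 0.68 (limma adjusted p = 0.0121).

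At 6 h both hydroxamic acids already differed from CI-994, the only anilide tested in this way. ITF-2357 was lower than CI-994 for 20 members in αTC1 (13.4% of all genes) and 34 in βTC3 (16.2%), and pyroxamide for 22 (13%) and 26 (13.6%). With a replicate left out these ran from 11 to 20 for the first and from 14 to 20 and 17 to 25 for pyroxamide. ITF-2357 was lower than pyroxamide for 4 members in αTC1 (3.94%) and 10 in βTC3 (4.41%), or 0 to 2 and 3 to 6 with a replicate left out.

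Pttg1 was the member that ran against the list. In βTC3 it rose under 19 compounds at 6 h and 22 at 24 h and was lower under none. At 24 h its DMSO arrays ran from 8.20 to 9.03 with a median of 8.82, ITF-2357 read 11.13, 11.33 and 11.38, and CI-994 read 11.02, 11.01 and 10.89. Every one of these lay about 2 log2 units above the highest DMSO array. The changes were 2.43 (limma adjusted p = 6.31e-22) and 2.31. The rise was already 1.98 for ITF-2357 at 6 h, where the arrays read 10.56, 10.57 and 10.26 against 7.89 to 8.83 in DMSO. At 1 h the ITF-2357 arrays read 8.41, 8.13 and 8.37.

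The Pttg1 rise lasted under some compounds whose other members had returned. LBH-589 arrays in βTC3 at 24 h read 10.62, 10.10 and 10.06, a change of 1.60, whereas scriptaid read 8.82, 8.71 and 9.38 (0.31, not called). In αTC1 Pttg1 was high to begin with, 10.28 to 10.56 in DMSO at 24 h, and ITF-2357 read 10.33, 10.10 and 10.64, a change of -0.05. It was called higher there under 4 compounds at 24 h. Pttg1 has 3 probe sets, and in βTC3 they were called higher under 19, 14 and 14 compounds at 6 h and 22, 21 and 12 at 24 h. Their DMSO means at 6 h were 8.45, 5.41 and 3.57 in βTC3 and 10.31, 8.86 and 4.79 in αTC1. Which transcripts each probe set detects was not tested.

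Cdc25c and Bub1 changed direction or moved late. Cdc25c was higher at 6 h under 9 of the 15 compounds in αTC1 and 12 in βTC3. Under ITF-2357 its βTC3 arrays ran from 6.66 to 7.12 at 6 h against 6.37 to 6.77 in DMSO (0.55), and from 5.36 to 5.66 at 24 h against 6.38 to 7.01 (-0.97). The groups overlapped at 6 h and not at 24 h. Bub1 in βTC3 had a median change of 0.03 over the 15 compounds at 6 h. At 24 h it ran from 6.40 to 7.16 under ITF-2357 against 7.95 to 8.48 in DMSO, a change of -1.53. In αTC1 it was called higher at 6 h under 4 of the 15 compounds, and its other probe set was called higher under 3 compounds and lower under 0.

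**Figure D5:**
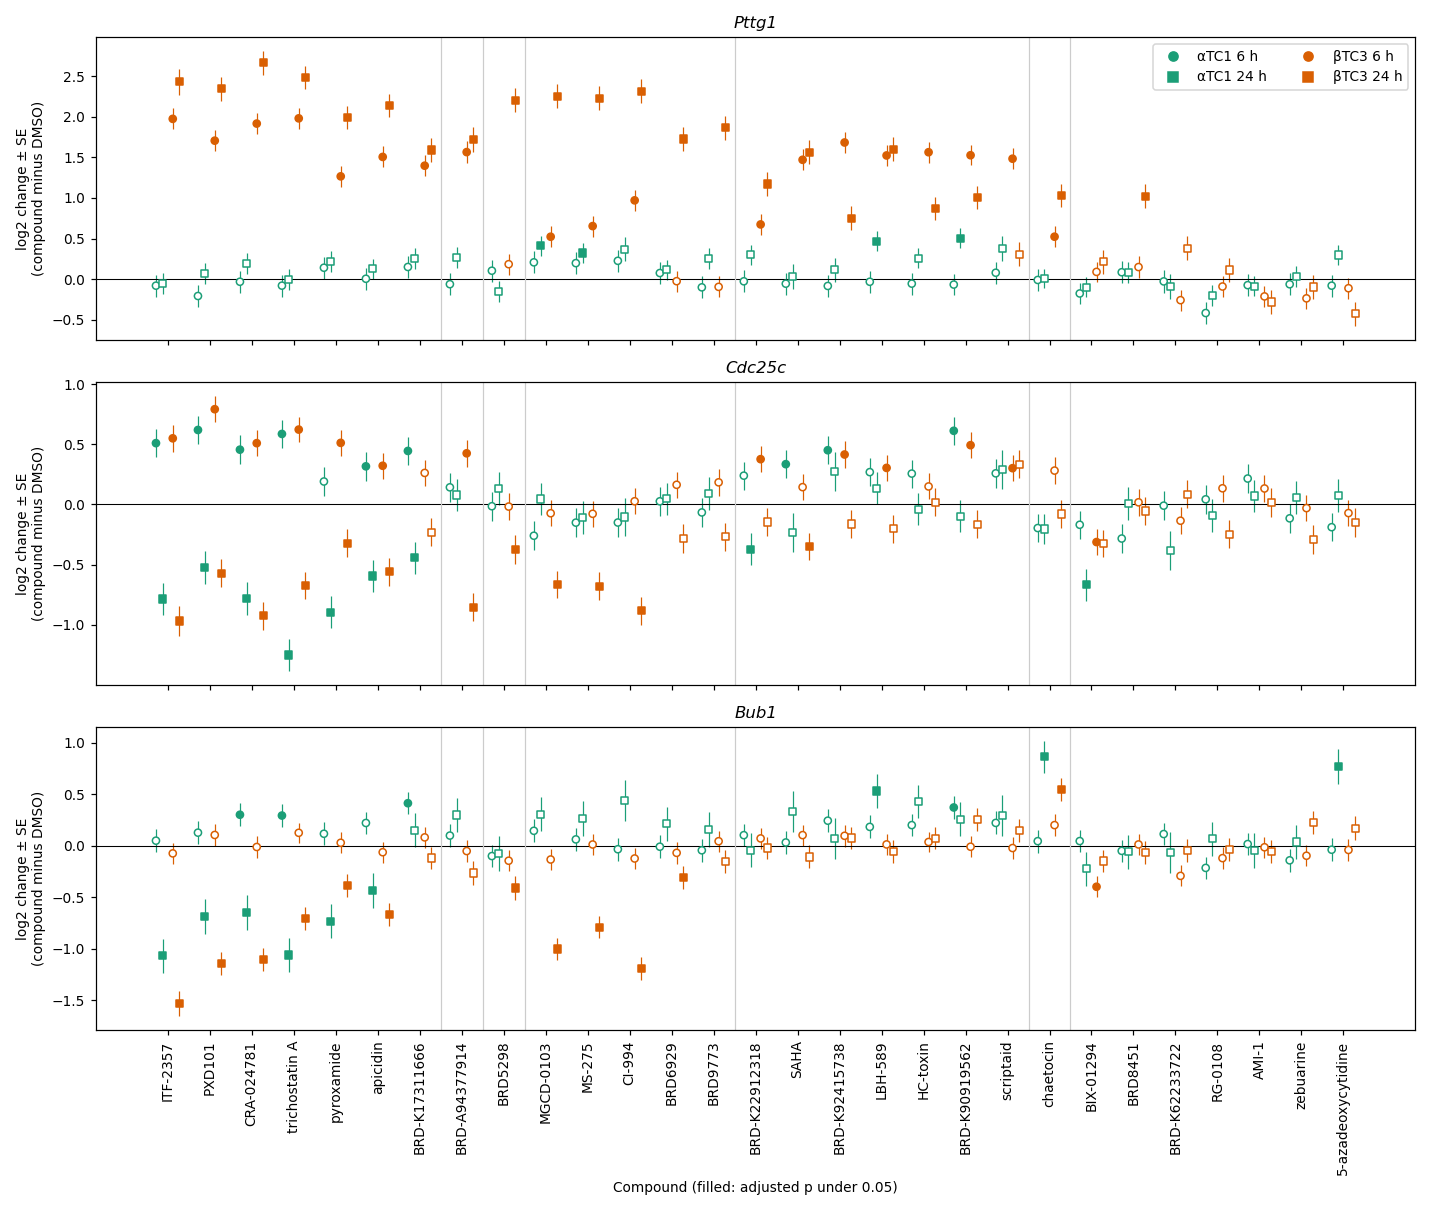
Log2 change against DMSO with standard errors for Pttg1, Cdc25c and Bub1 under each compound at 6 h and 24 h in both lines; filled points have a limma adjusted p under 0.05. Pttg1 rises only in βTC3 to any large extent, up to 2.67, and Cdc25c lies above 0 at 6 h and below 0 at 24 h under many compounds.

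Probe sets of the same gene did not always move alike. Of the 44 members, 20 have several, and in 167 of 2320 comparisons another probe set of the gene changed in the opposite direction, both by more than 0.1. Nusap1 had 30 of these and Pttg1 28. The other Top2a probe set lay near the bottom of the scale, at 3.12 in αTC1 and 2.83 in βTC3 under DMSO at 24 h, and was called lower under 1 and 0 compounds.

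Lists of neighbouring genes outside the 44, named by role and not by how they moved, showed which other parts of the machinery changed at 24 h. Under ITF-2357, other kinetochore genes were lower in 10 of 16 measured in αTC1 and 14 of 16 in βTC3, against 20.3% and 19% of all genes, with medians of -0.57 and -0.77. The same shares of all genes apply to the other lists under ITF-2357. Cenpm of the inner kinetochore changed by -1.73 and -1.37, and Spc25, a partner of Ndc80, by -1.19 and -1.30. Other proliferation genes of G2 and M were lower in 14 of 16 and 16 of 16, with medians of -0.79 and -1.32. The mitotic kinase Pbk changed by -2.21 and -2.30, and the proliferation antigen Mki67 by -1.63 in αTC1. Of the factors that switch on or repress such genes, 5 of 11 and 6 of 11 were lower. Foxm1 fell by 2.09 in αTC1 and by 2.66 in βTC3, and the MuvB subunit Lin9 by 1.37 and 1.57, while E2f5 rose by 1.15 in βTC3.

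Subunits of the anaphase-promoting complex were lower in 5 of 12 and 9 of 12, and cohesin genes in 4 of 8 in both lines, with medians between -0.22 and -0.47. Under CI-994, other G2 and M genes were lower in 2 of 16 in αTC1 and 14 of 16 in βTC3, and kinetochore genes in 3 and 13 of 16. The shares of all genes were 16.2% in αTC1, near the shares of both lists there, and 16.4% in βTC3. The difference between lines was not tested for these lists. Foxm1 changed by -0.88 in αTC1 and -1.73 in βTC3 under CI-994. Under scriptaid 0 genes of any of these lists were called at 24 h by limma, with its share of all genes not given here. Under chaetocin 8 of 16 kinetochore genes in αTC1 and 9 in βTC3 were higher, as were 8 and 4 of the 16 other G2 and M genes, against 23.4% and 15.4% of all genes. The count of 4 is not far from that share. Among these genes was Gtse1, a G2 and S phase gene that binds p53, higher by 1.63 and 0.64.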

How the data were processed

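Each value is 1 intensity per probe set and array on Affymetrix HT mouse arrays, deposited by the authors after RMA, per the submitters' processing notes (version not given in the sources used here). The deposited intensities were on a linear scale, so log2 was taken. Probe sets with 1 gene symbol (18003 of 22716; 287 had several and 4426 none) gave 11807 genes, and the brightest probe set on average stood for a gene with several. Array medians ran from 4.36 to 4.73 in log2, and the number of arrays per group limits the precision.

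Each line and time was fitted with limma 3.58.1 (R 4.3.3) over all compounds and DMSO, with the batch numbered in the titles (7 batches, 9 plates) as a term. A change passed at a Benjamini-Hochberg adjusted p under 0.05 over all genes. Differences between lines and times came from a fit of all arrays together. The fit was tested on simulated data. Python 3.11.15, pandas 2.3.3 and matplotlib 3.10.9 made tables and figures. Alternatives were no batch term, the plate as a random block, quantile normalization, median centring, dim genes left out, the mean of a gene's probe sets, only the compound's and DMSO's arrays, another p adjustment, each replicate left out, and a replicate block for compound pairs. Separate fits of each probe set of Pttg1, Bub1, Top2a, Nusap1, Hmmr and Spag5 were added after seeing the data.

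All members were accounted for by role. Array values are plotted for the member of each role with the largest mean absolute change at 24 h, and printed for all of these but Kif20a. Up to 3 genes of largest change are named for each neighbouring list. Ccnb2, Cdc25c, Pttg1, Bub1, Nusap1, Ttk and other members outside that rule were named after their values were seen. The members and lists were chosen with earlier results of these data known. Replicate numbers did not pair samples: of 52 same-numbered pairs, 11 correlated above 0.1 in their deviations (range -0.39 to 0.36).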

Additional observations from a re-analysis of the deposited data

Results flagged for a closer look

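A stray array was looked for in 88 groups of values, 44 from the 10 DMSO arrays of βTC3 at 6 h and 44 from the 4 chaetocin arrays of αTC1 at 24 h. In 2 of the 88, both of them DMSO, 1 array stood apart, where chance gives about 1 in 20. The lowest Cdca3 level was 9.12 with the next at 9.33, and the lowest Hmmr level was 9.22 with the next at 9.42.

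The difference between the αTC1 and βTC3 responses was tested itself for each compound at 6 h and 24 h, 58 times in all, and cases with at least 10 members called in the same direction are given here. At 24 h the αTC1 response was higher for 40 members under CI-994, 39 under BRD-A94377914, 38 under MGCD-0103, 34 under MS-275 and 26 under apicidin. It was higher for 19 under each of BRD5298, CRA-024781 and chaetocin, 18 under each of BRD6929 and PXD101, 16 under ITF-2357 and 10 under BRD9773. It was lower for 30 under trichostatin A and 25 under pyroxamide. At 6 h it was lower for 19 under chaetocin and higher for 10 under trichostatin A. No share of all genes is given here for apicidin, BRD5298, CRA-024781, BRD6929, PXD101, BRD9773 or trichostatin A at 6 h. Those counts alone therefore do not set the members apart from other genes. Leaving out a replicate took BRD6929 to between 5 and 12, BRD9773 to between 5 and 6, PXD101 to between 10 and 20, and trichostatin A at 6 h to between 2 and 11.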

How the results depend on the processing

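The 54 compound medians of at least 0.4 in size kept their sign over 509 alternatives, and none moved by 1.5 times; the largest shift was 0.225. Centring arrays on their medians moved the median of all genes by up to 0.169, leaving out dim genes by 0.236 and quantile normalization by 0.0612. The cause of each shift below was not tested. Compounds lowering at least 22 members in αTC1 numbered 16 at 6 h, and 4 at a bar of 33 members. At 24 h they numbered 8, and 16 at a bar of 11 members. Raising at least 22 in αTC1 at 24 h went from 1 to 0 with 1 adjustment over all comparisons or a bar of 33, and was 0 to 1 with a replicate left out. Without the batch term the αTC1 6 h medians were -0.62 for BRD-K17311666, -0.55 for BRD-K22912318 and -0.80 for BRD-K90919562. With centring they were -0.65, -0.81 and -0.79 for these, -0.73 for BRD-K92415738 and HC-toxin, -0.70 for CRA-024781 and LBH-589, -0.86 for ITF-2357, -0.87 for pyroxamide, -0.79 for SAHA, -0.69 for scriptaid and -0.76 for trichostatin A. With the mean of probe sets they were -0.58 for BRD-K22912318, -0.55 for BRD-K90919562, -0.64 for PXD101 and -0.56 for pyroxamide in αTC1, and -0.56 for HC-toxin, -0.84 for ITF-2357, -0.73 for PXD101 and -0.67 for SAHA in βTC3. The plate as a block gave -0.84 for BRD-A94377914 in βTC3 at 6 h. In DMSO, centring gave 4 members higher in αTC1 at 1 h and 8 at 24 h, and no batch term gave 7 higher at 6 h and 5 at 24 h than at 1 h in αTC1.

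For the pairs, the replicate block gave 1 member lower and 0 higher for ITF-2357 minus pyroxamide in αTC1 at 6 h and 11 higher for pyroxamide minus CI-994 in βTC3 at 24 h, and changed no other pair count by over 1.5 times. No batch term gave 0 lower and 0 higher in αTC1 at 6 h, 1 lower at 24 h and 5 lower in βTC3 at 6 h for ITF-2357 minus pyroxamide. It gave 0 higher in αTC1 and 1 in βTC3 at 6 h for ITF-2357 minus CI-994, and 0 higher in βTC3 at 6 h for pyroxamide minus CI-994. Centring gave 1 lower for ITF-2357 minus pyroxamide in αTC1 at 6 h. With a replicate left out, higher counts ran from 0 to 9 (αTC1, 6 h) and 0 to 1 (βTC3, 6 h) for ITF-2357 minus pyroxamide, 1 to 2 (βTC3, 6 h) for ITF-2357 minus CI-994, and 0 to 2 (βTC3, 6 h) and 6 to 13 (βTC3, 24 h) for pyroxamide minus CI-994. Lower counts for ITF-2357 minus pyroxamide ran from 0 to 2 in αTC1 at both times and 3 to 6 in βTC3 at 6 h, for ITF-2357 minus CI-994 from 11 to 20 in αTC1 at 6 h, and for pyroxamide minus CI-994 from 14 to 20 (αTC1) and 17 to 25 (βTC3) at 6 h.

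Medians with a replicate left out ran, at 24 h in αTC1, from -0.60 to -0.30 for BRD-K17311666, -0.15 to 0.35 for BRD-K92415738 and 0.18 to 0.50 for chaetocin. At 24 h in βTC3 they ran from -0.11 to 0.0677 for AMI-1, -0.64 to -0.44 for BRD-K17311666, -0.23 to 0.0496 for BRD-K62233722, -0.61 to -0.48 for BRD9773, -1.86 to -1.70 for ITF-2357, -1.43 to -1.23 for apicidin, 0.12 to 0.29 for scriptaid and -1.02 to -0.83 for trichostatin A. At 6 h in αTC1 they ran from -0.65 to -0.54 for BRD-K90919562, -0.65 to -0.49 for BRD-K92415738, -0.94 to -0.52 for ITF-2357 and -0.83 to -0.56 for PXD101. At 6 h in βTC3 they ran from -0.83 to -0.65 for BRD-K17311666, -0.61 to -0.51 for BRD-K22912318, -0.82 to -0.69 for BRD-K90919562 and -0.85 to -0.72 for BRD-K92415738.

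With the mean of probe sets, 3 small changes of single genes turned sign in αTC1 at 6 h. They were Pttg1 under pyroxamide (-0.33, from 0.14), Top2a under CI-994 (0.27, from -0.08) and Top2a under chaetocin (0.20, from -0.06). The main values were at most 0.14 in size. The dim Top2a probe set enters that mean. Where 2 arrays remain in a group, leaving out 1 assumes that the other varies like the rest.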
